A study of Mus musculus with 8 samples.

Results

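A set of 9 genes of the red cell lineage were read out library by library from the RNA-seq of hematopoietic stem cells (HSCs). They were the adult beta-globin genes Hbb-bs and Hbb-bt, the adult alpha-globin genes Hba-a1 and Hba-a2, and Slc4a1, Alas2, Car1, Car2 and Ermap. These 9 members, of 22065 named genes in the table, were chosen by symbol and on their counts in these same libraries, with 1 library known to be high for some of them. Their levels are therefore a description and carry no test. The data hold 8 libraries of 100 sorted cells each, 4 from MitolΔ/Δ HSCs and 4 from control HSCs. HSCs were CD150+ CD48- EPCR+ Lineage- bone marrow cells of C57BL/6 mice aged 8 to 10 weeks. MitolΔ/Δ mice were Mitol Flox/Flox; MX1-cre+ and controls were Mitol Flox/Flox; MX1-cre- littermates. Both groups had received Poly:IC, and cells were taken 1 week later. The Mx1 promoter drives Cre in every cell that responds to interferon, so the deletion is not limited to HSCs. Nothing in the labels states that the replicates are separate mice, so an SD or a p-value measures the spread between these libraries.

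Red cells are filled with hemoglobin, a tetramer of alpha and beta globin chains that each hold a heme. Heme synthesis in erythroblasts starts with Alas2, the erythroid form of aminolevulinate synthase. Slc4a1 encodes band 3, the anion exchanger that carries bicarbonate across the red cell membrane and ties it to the spectrin skeleton. Car1 and Car2 encode the cytosolic carbonic anhydrases that interconvert carbon dioxide and bicarbonate, and Ermap encodes an erythroid membrane-associated protein that carries a blood group in humans. GATA1 and KLF1 are transcription factors that drive many genes of this lineage, through GATA motifs and CACCC boxes. HSCs are not red cell precursors by their surface phenotype, although Car2 is known to be expressed in immature hematopoietic cells as well.

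The globin pairs were shown first as sequence, because a count on one copy can be told from its partner only where the copies differ. On GRCm39, the build of the files, Hbb-bs lies at chr7:103475730-103482989 and Hbb-bt at chr7:103461727-103465047, both on the minus strand. Hba-a1 lies at chr11:32233186-32234504 and Hba-a2 at chr11:32246168-32247320 on the plus strand. The coding sequences of the beta pair, 444 bases each, differed at 1 base, and those of the alpha pair, 429 bases each, also at 1 base. The beta difference was C417T from Hbb-bs to Hbb-bt and the alpha difference C381T from Hba-a1 to Hba-a2, counted from the A of the start codon. Each fell on the third base of its codon. The stretch of 75 coding bases, the length of a read, around each difference is printed with the differing base in capitals, for coding positions 370 to 444 of the beta pair and 344 to 418 of the alpha pair.
Hbb-bs: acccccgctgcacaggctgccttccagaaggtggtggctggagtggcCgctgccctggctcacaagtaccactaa
Hbb-bt: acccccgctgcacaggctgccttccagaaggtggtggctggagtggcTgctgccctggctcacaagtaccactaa
Hba-a1: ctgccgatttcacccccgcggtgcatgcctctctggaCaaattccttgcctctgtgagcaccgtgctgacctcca
Hba-a2: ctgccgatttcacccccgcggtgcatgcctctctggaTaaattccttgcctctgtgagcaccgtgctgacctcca

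Of all windows of 75 bases in the canonical GENCODE transcript, 60.7% of Hbb-bs also occurred in a transcript of Hbb-bt and 56.5% of Hbb-bt in one of Hbb-bs. In the alpha pair the shares were 78.3% for Hba-a1 and 86.9% for Hba-a2. Windows found in no other gene and nowhere else in the genome made up 29.7% of Hbb-bs, 43.5% of Hbb-bt, 11.3% of Hba-a1 and 13.1% of Hba-a2. How reads with several places were counted is not given in the sources used here. Counts of single globin copies, the alpha copies above all, are therefore uncertain in how they divide between partners. The remaining members were nearly free of this. Windows of Slc4a1 (chr11:102239650-102257029) and Car2 (chr3:14951317-14967568) were all confined to the gene, and 92.5% were for Car1 (chr3:14831269-14873459). Alas2 (chrX:149330371-149353634) shared 311 exon bases with Apex2 on the opposite strand. Ermap (chr4:119032654-119047208) shared 410 with the antisense gene Gm70209. The strand setting of the counting is not stated, so reads from these overlaps cannot be assigned.

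**Figure D1:**
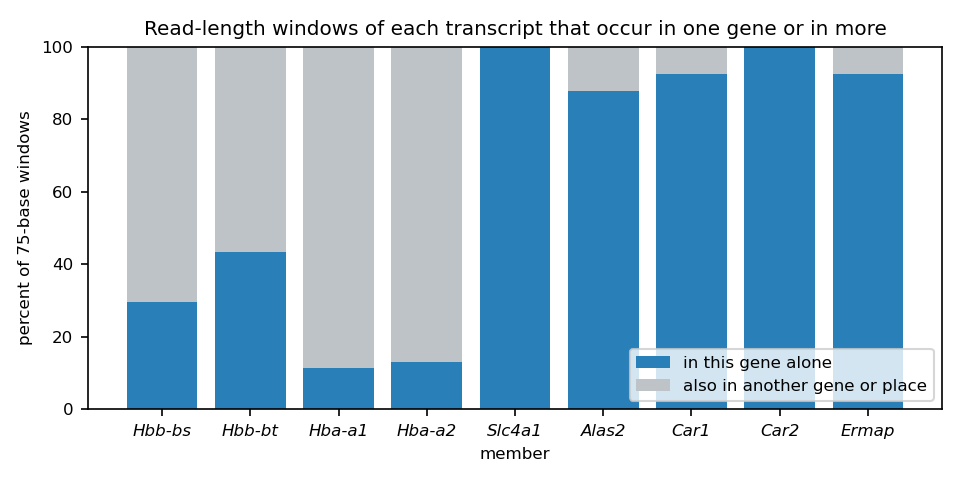
Percent of 75-base windows of each member's canonical transcript (y axis) that occur in that gene alone (blue) or also in another gene or place, antisense genes at the same place included (grey), by member (x axis). The 4 globins have between 11.3% and 43.5% of windows to themselves, and the other members 87.9% or more.

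Promoters were printed for members that differed most in their pattern over the libraries: Hbb-bs and Hba-a1, high in 1 library, and Hbb-bt and Alas2, counted in all 8. Of the 9 members, 6 matched the RefSeq promoter table of GRCm38.p6. The stretches are the 250 bases before the RefSeq start, 5′ to 3′ on the gene's strand, and were located on GRCm39 by exact match. Those of Hbb-bs (chr7:103477136-103477385), Hbb-bt (chr7:103463131-103463380) and Alas2 (chrX:149330163-149330412) matched at 1 place. The Hba-a1 stretch (chr11:32233422-32233671) matched at 2, since the alpha promoters were 100% identical over 247 aligned bases. The canonical GENCODE transcripts of these 4 genes start inside the stretches. Capitals mark the GATA motif (searched as GATAA), the box spelled CACCC, the box spelled CCAAT and their reverse complements, which run into each other in Hbb-bt and in a CACCC repeat of Alas2.
Hbb-bs: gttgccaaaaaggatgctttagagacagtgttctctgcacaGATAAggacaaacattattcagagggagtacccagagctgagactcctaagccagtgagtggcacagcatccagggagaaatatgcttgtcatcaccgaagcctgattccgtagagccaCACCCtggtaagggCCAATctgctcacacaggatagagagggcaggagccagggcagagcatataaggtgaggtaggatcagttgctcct
Hbb-bt: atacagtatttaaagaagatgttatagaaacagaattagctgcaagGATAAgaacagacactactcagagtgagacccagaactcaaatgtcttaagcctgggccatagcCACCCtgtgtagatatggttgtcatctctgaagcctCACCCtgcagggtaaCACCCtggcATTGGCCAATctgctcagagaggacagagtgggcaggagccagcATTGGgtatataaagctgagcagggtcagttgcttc
Hba-a1: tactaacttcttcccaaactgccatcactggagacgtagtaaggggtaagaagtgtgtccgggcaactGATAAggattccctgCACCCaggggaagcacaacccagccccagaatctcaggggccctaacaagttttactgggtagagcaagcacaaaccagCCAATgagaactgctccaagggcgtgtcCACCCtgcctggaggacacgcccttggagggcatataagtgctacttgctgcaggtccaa
Alas2: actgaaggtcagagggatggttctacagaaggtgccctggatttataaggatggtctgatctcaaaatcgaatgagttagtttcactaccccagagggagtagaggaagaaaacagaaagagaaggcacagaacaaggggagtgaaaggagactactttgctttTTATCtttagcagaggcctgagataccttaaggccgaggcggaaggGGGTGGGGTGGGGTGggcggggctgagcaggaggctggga

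GATAA and CACCC were found in 6 of the 6 member promoters, and CCAAT in 5 of 6. Among 32851 RefSeq promoter stretches of the same length, 22.6% held GATAA, 52.0% CACCC and 33.9% CCAAT. Aligned without gaps, the Hbb-bs and Hbb-bt stretches were 51.0% identical, less alike than their coding sequences.

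Library totals on named genes ran from 7214935 to 12398138, so 3 counts, taken as the limit that a count of 0 allows, were 0.242 to 0.416 CPM, the count for each 1e+06 counted reads. Intervals and limits cover counting error only, as the reads carry no molecular identifiers. No libraries held identical values. The targeted gene Marchf5, which encodes MITOL, had 353, 223, 337 and 266 counts in MitolΔ/Δ replicates 1 to 4. Control replicates 1 to 4 had 227, 293, 354 and 292. The groups could not be told apart by its count (log2 fold change -0.15, SE 0.13, adjusted p = 0.498, edgeR). The paper took mice as MitolΔ/Δ after PCR showed the deletion. A count per gene does not say which exons its reads came from, so it cannot decide whether the deletion took place. Summed over 10 HSC marker genes, levels were 2656 to 3029 CPM in MitolΔ/Δ and 4006 to 5058 CPM in control libraries, so the markers of the labelled cell type were abundant in every library. Because cells were pooled, fewer cells of a type and less RNA per cell cannot be told apart.

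In control HSCs and in 3 of the 4 MitolΔ/Δ libraries, globin counts came almost wholly from a single gene, Hbb-bt. In MitolΔ/Δ replicate 3 the other adult globins were counted as well, and with them Slc4a1. Counts of Hbb-bs were 5, 19, 1145 and 8 in MitolΔ/Δ replicates 1 to 4 and 12, 3, 0 and 11 in control replicates 1 to 4. Replicate 3 held 95.2% of all Hbb-bs counts, and the remaining libraries overlapped between the groups. Its level was 109.6 CPM (95% interval 103.4 to 116.2), 54.0 times (34.4 to 90.0) that of the next library, MitolΔ/Δ replicate 2. The normalized count was 270.1 ± 519 (SD, n = 4) in MitolΔ/Δ and 7.22 ± 7.06 (SD, n = 4) in control HSCs, and 10.7 ± 8.15 (SD, n = 3) without replicate 3. Normalized counts here are counts divided by DESeq2 size factors.

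The alpha globins moved in the same library. Hba-a1 had 3, 0, 424 and 5 counts in MitolΔ/Δ replicates 1 to 4 and 6, 2, 2 and 3 in the controls. Hba-a2 had 0, 0, 167 and 7 counts in MitolΔ/Δ replicates 1 to 4 and 3, 0, 0 and 2 in the controls. For both genes all libraries but MitolΔ/Δ replicate 3 stayed at single digits, with groups that overlapped. Replicate 3 stood 48.8 times (22.2 to 134) above the next library for Hba-a1 and 21.0 times (9.99 to 53.2) for Hba-a2. Summing the copies removes the doubt about their division: alpha-globin counts were 591 in replicate 3 and 0 to 12 in the other 7 libraries.

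Hbb-bt behaved differently from its near-identical partner. It had 1041, 771, 1564 and 1331 counts in MitolΔ/Δ replicates 1 to 4 and 451, 555, 517 and 160 in control replicates 1 to 4. Every library held counts, and every MitolΔ/Δ library lay above every control library on normalized counts. The highest level, 149.8 CPM in MitolΔ/Δ replicate 3, was 1.04 times (0.963 to 1.12) that of replicate 4, so these neighbours did not differ beyond counting error, and replicate 3 held 24.5% of all Hbb-bt counts. The lowest level, 16.3 CPM, was in control replicate 4. Normalized counts were 1114 ± 354 (SD, n = 4) in MitolΔ/Δ and 454 ± 213 (SD, n = 4) in control HSCs, which gives log2 fold changes of 1.29 (SE 0.35) with all libraries, 1.15 without replicate 3 and 0.84 without replicates 3 and 4. Hbb-bt was the only member whose groups did not overlap, as was seen for 15.4% of the 16444 genes tested. In all, 4 members passed the expression filter (Hbb-bs, Hbb-bt, Alas2 and Car2), and of these 4 only Hbb-bt was past the edgeR threshold, beside 8.43% of all genes tested. It was not called without replicate 3, without replicates 3 and 4, by DESeq2 or with the replicate number as a block. As Hbb-bt was among the genes whose counts chose the set, nothing is read from either.

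Summed over the 4 adult globins, levels were 84.6, 84.4, 316 and 146.6 CPM in MitolΔ/Δ replicates 1 to 4 and 65.4, 64.9, 52.4 and 18.0 CPM in control replicates 1 to 4. The sum in replicate 3 was above all others, and here too the groups did not overlap. Hbb-bt made up 47.4% of globin counts in replicate 3 (exact 95% binomial interval 45.7% to 49.1%) and 90.9% to 99.6% in each of the other 7. Without Hbb-bt, the globins summed to 166 CPM in replicate 3 and to between 0.202 and 2.91 CPM elsewhere. Even in replicate 3 globins were 0.0316% of the library's counts. The embryonic and theta globins and the alpha-globin chaperone Ahsp, 7 genes in all, have no row in the table, which holds genes with at least 11 counts over the libraries.

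**Figure D2:**
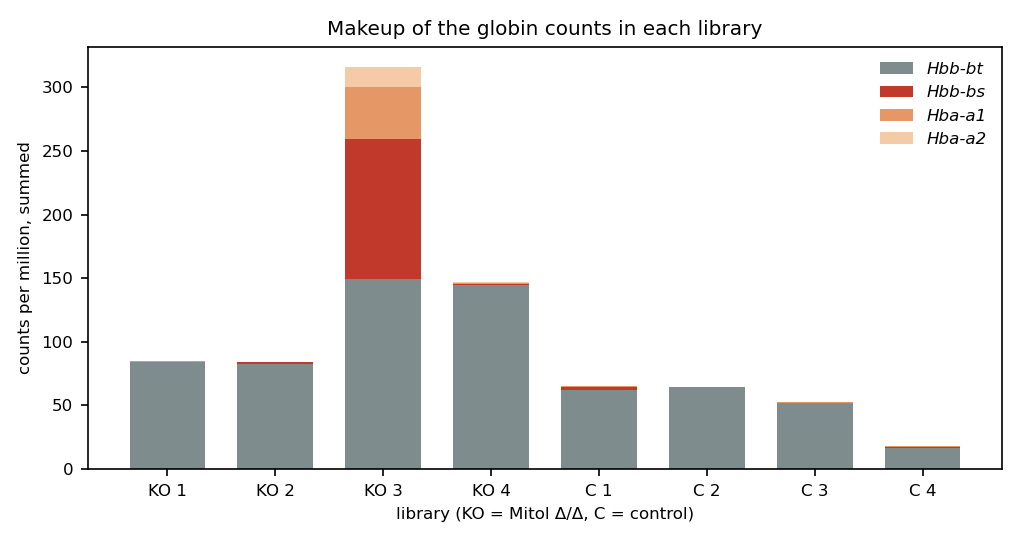
Summed level of the 4 adult globins (y axis, CPM) in each library (x axis), stacked by gene. Hbb-bt fills 90.9% to 99.6% of every bar but that of MitolΔ/Δ replicate 3, where it fills 47.4% of 316 CPM.

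Slc4a1 was the member most confined to a single library. It had 0, 2, 1515 and 0 counts in MitolΔ/Δ replicates 1 to 4 and 10, 0, 0 and 1 in control replicates 1 to 4. Replicate 3 held 99.2% of its counts, and the gene was at 0 in 4 libraries. The level there, 145.1 CPM, was 105 times (56.8 to 219) that of control replicate 1, the next library. Normalized counts were 347 ± 693 (SD, n = 4) in MitolΔ/Δ HSCs with replicate 3 and 0.693 ± 1.2 (SD, n = 3) without it, against 3.52 ± 6.46 (SD, n = 4) in controls. Unlike the globins, Slc4a1 shares no window with another gene, so this pattern does not rest on a choice between copies.

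Alas2 and Car2 were counted in all libraries and varied least. Alas2 had 188, 156, 240 and 139 counts in MitolΔ/Δ replicates 1 to 4 and 120, 135, 129 and 235 in control replicates 1 to 4. MitolΔ/Δ replicate 3 and control replicate 4 were the high libraries, at 23.0 and 24.0 CPM, and did not differ beyond counting error (ratio 0.958, 0.797 to 1.15). The normalized count was 169 ± 34.5 (SD, n = 4) in MitolΔ/Δ and 158.6 ± 38.1 (SD, n = 4) in control HSCs (log2 fold change 0.07, SE 0.21). Car2 had 5345, 4379, 3979 and 3432 counts in MitolΔ/Δ replicates 1 to 4 and 2946, 3939, 4565 and 6705 in control replicates 1 to 4. The high library was control replicate 4, at 684.6 CPM and 1.46 times the next, and MitolΔ/Δ replicate 3 ranked seventh of 8. Its normalized count was 4002 ± 447 (SD, n = 4) in MitolΔ/Δ and 4599 ± 964 (SD, n = 4) in control HSCs (log2 fold change -0.22, SE 0.13). Control replicate 4, a high library for both genes, was also the highest library for 28.4% of the 14540 named genes with a mean normalized count of at least 20. The coefficient of variation over the 8 libraries was 22.6% for Alas2 and 21.5% for Car2, whereas it ran from 55.3% to 279% for the other 7 members.

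Car1 and Ermap peaked in another MitolΔ/Δ library. Car1 had 0, 2, 7 and 494 counts in MitolΔ/Δ replicates 1 to 4 and 0, 0, 56 and 4 in control replicates 1 to 4. Its level in MitolΔ/Δ replicate 4 was 53.6 CPM, 9.49 times that of control replicate 3, and replicate 3, where Slc4a1 and the globins were high, held 1.24% of Car1 counts. Ermap had 0, 19, 151 and 235 counts in MitolΔ/Δ replicates 1 to 4 and 1, 9, 6 and 0 in control replicates 1 to 4. It was high in both MitolΔ/Δ replicates 3 and 4, which held 35.9% and 55.8% of its counts, and MitolΔ/Δ replicate 1 sat at 0 with control replicate 4. Replicate 4 was 1.76 times replicate 3 for Ermap. Normalized counts of Car1 were 133 ± 260 (SD, n = 4) in MitolΔ/Δ and 14.1 ± 25.8 (SD, n = 4) in control HSCs, and those of Ermap were 102 ± 115 (SD, n = 4) and 4.14 ± 4.36 (SD, n = 4). The groups overlapped for both. Among the other carbonic anhydrases, 0 of 9 tested genes were past the threshold by edgeR or by DESeq2, beside 8.43% and 14% of all genes. Of these 9, 1 had an unadjusted p-value under 0.05 by edgeR, as did 4336 of all 16444 genes tested. With so few genes, nothing is read from these counts.

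**Figure D3:**
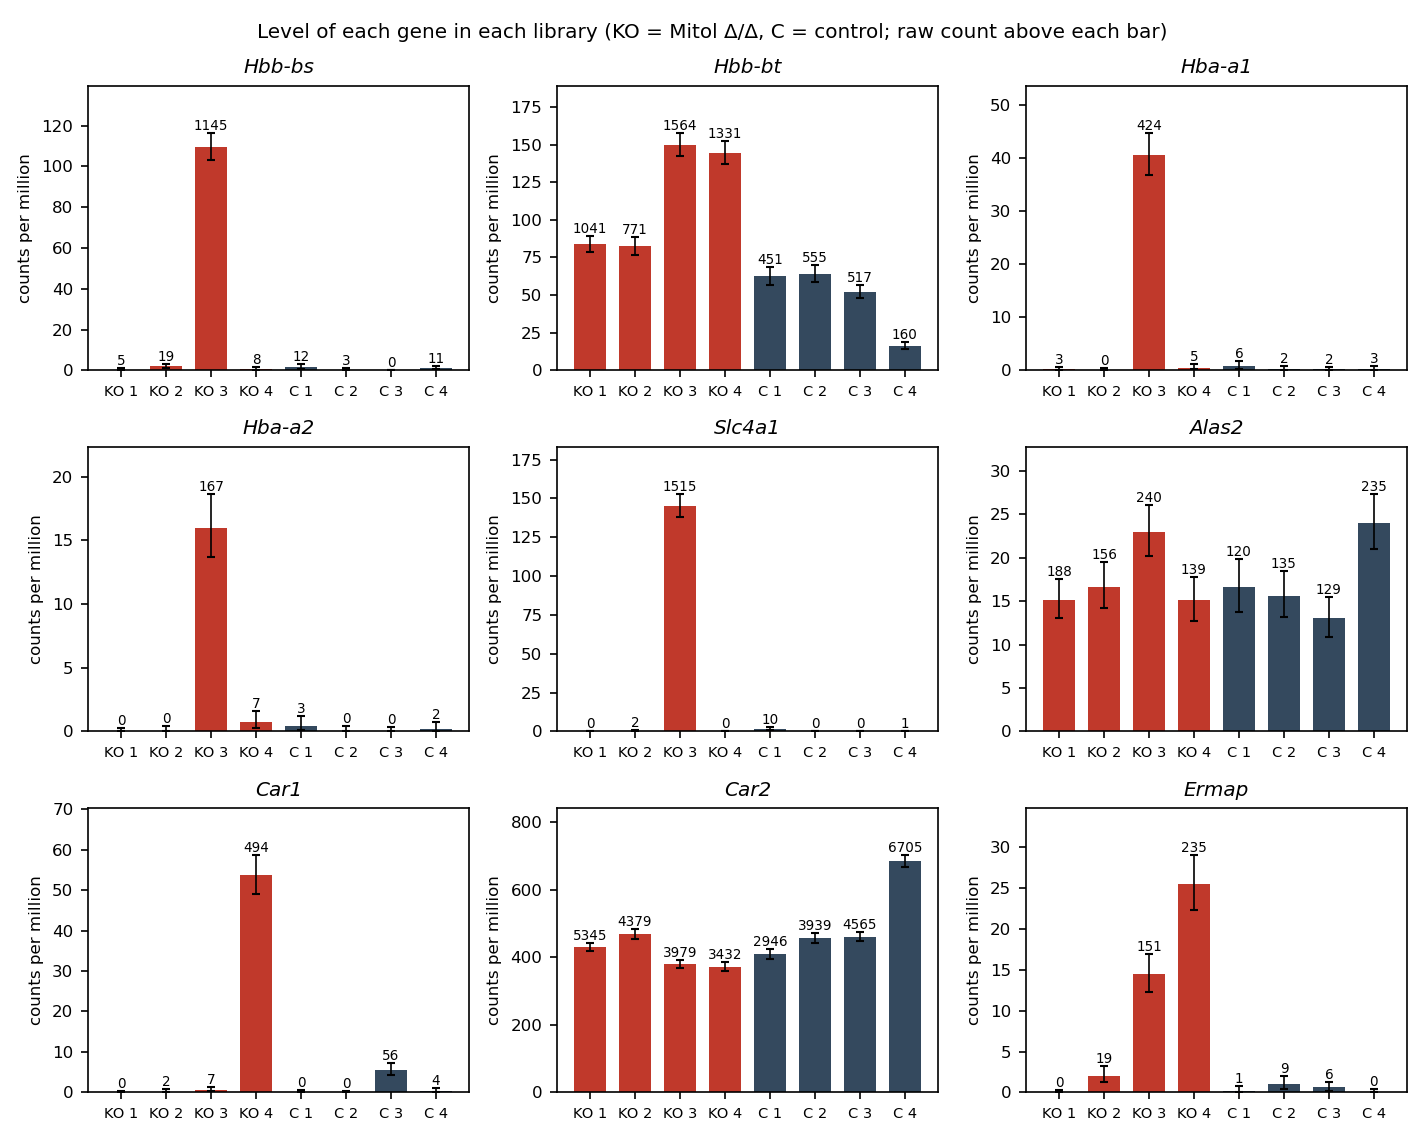
Level of each member (y axis, CPM, starting at 0, own scale per panel) in each library (x axis), MitolΔ/Δ in red and control in dark blue. Bars are single libraries with their 95% Poisson interval, and the raw count stands above each. Hbb-bs, Hba-a1, Hba-a2 and Slc4a1 peak in MitolΔ/Δ replicate 3, Car1 in replicate 4, Ermap in both, and Hbb-bt, Alas2 and Car2 are counted in all 8 libraries.

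Per kilobase of exon, the order of members in MitolΔ/Δ replicate 3 was Hbb-bt at 90.2, Car2 at 86.5, Hbb-bs at 67.2, Hba-a1 at 41.8, Slc4a1 at 29.7, Hba-a2 at 17.4, Alas2 at 8.56, Ermap at 2.49 and Car1 at 0.352 CPM per kilobase. In the median of the other 7 libraries Car2 led at 103.6, followed by Hbb-bt at 38.7 and Alas2 at 5.82 CPM per kilobase, and the rest lay at or under 0.532. Globin levels on this scale count just the reads that were assigned to a copy.

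Correlations of log2(normalized count + 1) between members over the 8 libraries describe the same groups. They share library and depth, and most rest on 1 library. Pearson's r was 0.93 for Hbb-bs with Slc4a1 and 0.63 over the 7 libraries without MitolΔ/Δ replicate 3. For Hba-a1 with Slc4a1 it was 0.90 and 0.27. Hbb-bt with Hbb-bs had 0.41 and 0.05, so the beta partners did not run together. Hbb-bt ran against Car2, with r of -0.91 over 8 and -0.90 over 7 libraries. Control replicate 4, kept in both values, was the lowest library for Hbb-bt and the highest for Car2. Car1 with Ermap had 0.63 and 0.72, and MitolΔ/Δ replicate 4, kept in both values, was the highest library for each. For these pairs r was not computed without those libraries, so how far it rests on them is not known.

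Other named genes with at least 20 mean normalized counts were ranked by likeness to each pattern. For the summed adult globins the closest were Micall2 (r = 0.98), Hbs1l (0.97), Csrnp1 (0.97), Bhlhe40 (0.96) and Selenot (0.96), over 8 libraries. These followed the sum mostly through Hbb-bt, and r stayed at 0.94 to 0.98 without replicate 3. Slc4a1 was nearest to Caml (0.94, or 0.79 without replicate 3) and Apol8 (0.91, or 0.78). Alas2 was nearest to Cep290 and Rdh12 (0.95 and 0.91), Car1 to Dnajb12 and Gm15418 (0.96 and 0.95), Car2 to Myef2 and Fam172a (0.99 and 0.98), and Ermap to Chpf and Fbxo4 (0.97 and 0.97). None of these is on a red cell list used here.

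Genes highest in MitolΔ/Δ replicate 3 by at least 2 times were counted as a description. The threshold was set after the members' values were seen. Of 14540 named genes with at least 20 mean normalized counts, 14, or 0.0963%, met it. The members in this count were known to be high in that library, so their presence carries no support. Some genes reached the mean of 20 mainly through it, as Hba-a2 did (mean 20.75, with 152.9 in replicate 3). The 13 reported here included 4 members (Slc4a1, Hbb-bs, Hba-a1 and Hba-a2) and 4 genes of the red cell membrane list: Sptb, a spectrin chain, Dmtn, which bundles actin at the membrane, and the blood group genes Kel and Rhd. The other 5 were the chemokine gene Ccl5, the heat shock gene Hspa1b, Paqr9, Apol8 and Hic1. Ccl5 had 279 counts in replicate 3 and 0 to 4 in each other library. Hspa1b had 439 there and 52 in MitolΔ/Δ replicate 4. In MitolΔ/Δ replicate 4, 35 genes met the same threshold, among them Car1 and the adducin gene Add2 of the membrane list, and 103 met it in control replicate 4.

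**Figure D4:**
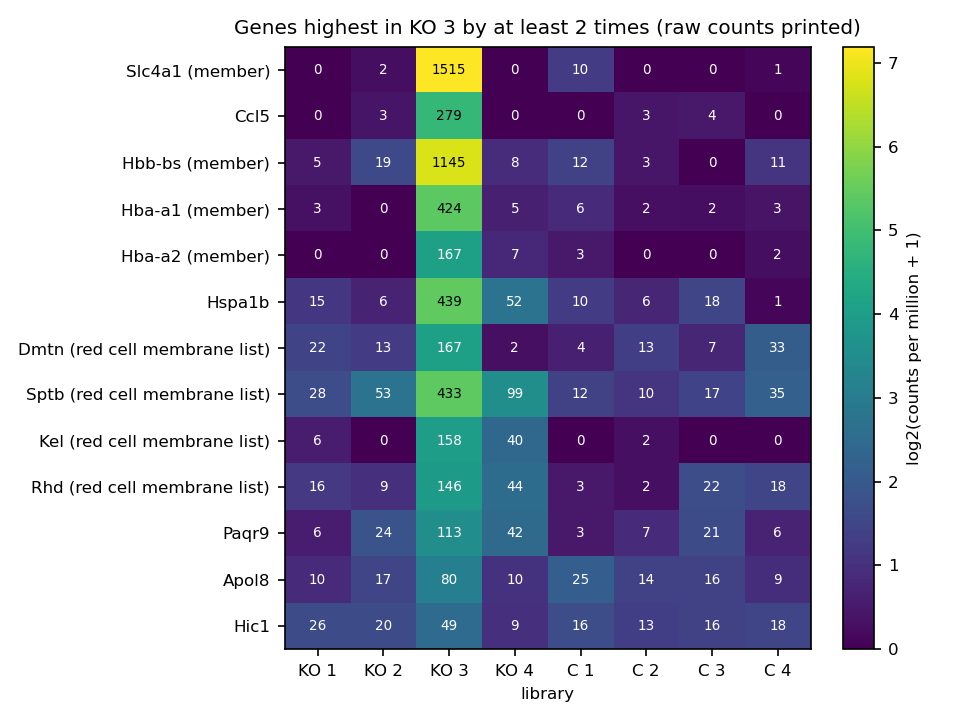
The 13 reported genes (rows, with the raw count printed in each cell) highest in MitolΔ/Δ replicate 3 by at least 2 times, by library (columns), coloured by log2(CPM + 1). Of these, 4 are members and 4 are on the red cell membrane list, and Slc4a1 reaches 1515 counts in replicate 3.

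Red cell genes outside the members were read on 5 lists of 66 genes, which the choice of members did not use. The lists were written with earlier results of these data known. Of 54 that passed the filter, 15 changed (10 higher and 5 lower in MitolΔ/Δ HSCs, 27.8%), beside 8.43% of all 16444 genes tested (4.68% higher and 3.75% lower). Their median log2 fold change was 0.16, and -0.02 over all genes tested. Without MitolΔ/Δ replicate 3, 5 of 54 were called (9.26%, beside 3.1% of all genes tested in that fit). Without replicates 3 and 4, 10 were called (18.5%, beside 14% of all genes), with a median log2 fold change of -0.04. With any library left out in turn, 3 to 15 were called. Of the 55 with a mean normalized count of at least 20, 17 were highest in replicate 3 (30.9%), against 7.12% of all genes at that level. Some reached that mean mainly through replicate 3, such as Kel (mean 24.2, 158 counts there and at most 40 elsewhere). These shares are therefore a description. Gata1, Prdx2 and E2f2 were called in 8 of 8 fits that left out a library and Slc25a39 in 7, and the other 11 in 0 to 4.

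Slc4a1 belongs to the red cell membrane. Of 16 other membrane genes with a mean normalized count of at least 20, 9 were highest in MitolΔ/Δ replicate 3 and 4 in replicate 4. This too is a description, as Kel is among them. Of 15 tested, 3 changed, each higher, with a median log2 fold change of 0.46. The ankyrin gene Ank1, which links band 3 to spectrin, rose by 2.25 (SE 0.54, adjusted p = 0.0291, edgeR with Benjamini-Hochberg adjustment, 4 of 4 MitolΔ/Δ libraries above all controls). Sptb rose by 2.93 (SE 0.75, edgeR adjusted p = 0.0354, 3 of 4 libraries), with 433 counts in replicate 3 and 28, 53 and 99 in the other MitolΔ/Δ libraries. Both were past the threshold with all libraries and not without replicate 3 (edgeR adjusted p = 0.0702 for Ank1 and 0.0931 for Sptb). The loss was not particular to replicate 3. Of 8 fits that left out a library, Ank1 was called in 4 and Sptb in 3. Xk, a membrane protein of the Kell complex, rose by 0.46 (edgeR adjusted p = 0.0436).

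Genes of heme synthesis and iron uptake surround Alas2 in the pathway. Of 13 tested, 3 changed, each higher, with a median log2 fold change of 0.17. Cpox, an enzyme downstream of Alas2, rose by 0.53 (SE 0.15, edgeR adjusted p = 0.0446, 4 of 4 libraries). Tfrc, the transferrin receptor, rose by 0.68 (edgeR adjusted p = 0.0450), and the ferrireductase gene Steap3 by 0.93 (edgeR adjusted p = 0.0358). Without replicate 3, edgeR adjusted p was 0.105 for Cpox, 0.102 for Tfrc and 0.0704 for Steap3. Here too the loss was not particular to replicate 3. When each library was left out in turn, Cpox was called in 1 fit, Tfrc in 2 and Steap3 in 3. Fech, which inserts iron into protoporphyrin to form heme, had a log2 fold change of -0.04 (edgeR adjusted p = 0.903).

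Among 12 transcription factors and receptors of the lineage, 1 rose and 5 fell, with a median log2 fold change of -0.22, and 0 were highest in MitolΔ/Δ replicate 3. Gata1 was the riser, with 146, 126, 324 and 288 counts in MitolΔ/Δ replicates 1 to 4 and 19, 30, 24 and 7 in control replicates 1 to 4. No MitolΔ/Δ library overlapped a control library (log2 fold change 3.30, SE 0.45, edgeR adjusted p = 0.00381), and the call was kept with each library left out in turn. Its range within MitolΔ/Δ HSCs was far narrower than that of Slc4a1 or Hbb-bs. Klf1 had 13, 21, 101 and 97 counts in MitolΔ/Δ replicates 1 to 4 and 1, 2, 19 and 22 in control replicates 1 to 4 (log2 fold change 2.36, SE 0.80, edgeR adjusted p = 0.0859), high in the libraries where Ermap was high. Epor, the erythropoietin receptor, had a log2 fold change of 0.68 (edgeR adjusted p = 0.129). Sox6, a factor of definitive erythropoiesis, fell by 1.10 (edgeR adjusted p = 0.0233), and Gata2, Ldb1, Nfe2 and Lmo2 fell by 0.39, 0.32, 0.36 and 0.34 (edgeR adjusted p = 0.0287, 0.0351, 0.0425 and 0.0496).

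Of 14 tested genes known from later erythroid maturation, 3 changed, each higher, with a median log2 fold change of 0.11. These were Prdx2, a peroxiredoxin (0.50, edgeR adjusted p = 0.0122), the mitochondrial carrier gene Slc25a39 (0.62, 0.0148) and the cell cycle factor gene E2f2 (1.70, 0.00844). All 3 were highest in MitolΔ/Δ replicate 1 and were also called without replicate 3. Hemgn had a log2 fold change of 0.29 (edgeR adjusted p = 0.539), or -0.06 without replicate 3.

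**Figure D5:**
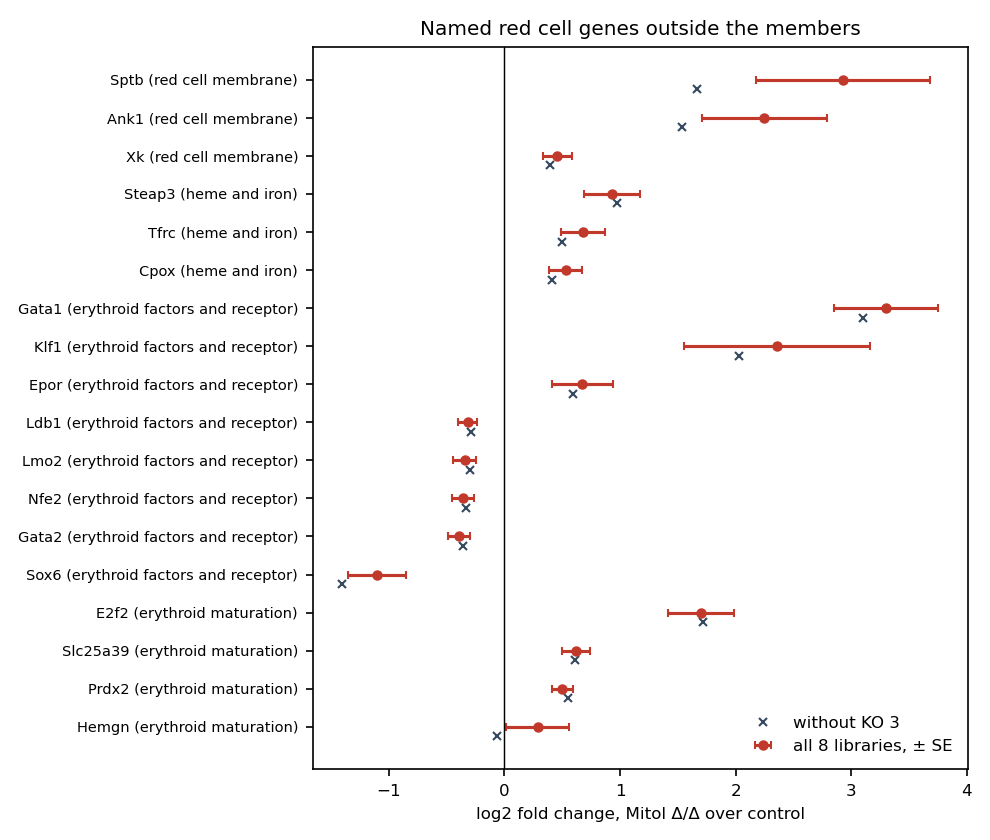
Log2 fold change of MitolΔ/Δ over control HSCs (x axis) for the named red cell genes outside the members that were tested (y axis, with their list). Circles with bars give the edgeR value ± SE from all 8 libraries and crosses the value without MitolΔ/Δ replicate 3. Leaving it out moves Sptb from 2.93 to 1.67, while Gata1 moves from 3.30 to 3.10.

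Markers of other cells were set beside the members. Neutrophil markers, 7 of 10 in the table, summed to 1.74 to 3.83 CPM in MitolΔ/Δ and 5.27 to 10.1 CPM in control libraries. S100a8 and S100a9 differed most, with mean normalized counts of 0.391 and 0 in MitolΔ/Δ and 25.7 and 14 in control HSCs. Camp, Elane and Mpo were also lower in MitolΔ/Δ and Ltf was higher, each at a mean of at most 6.98. Only Ngp passed the filter, and it was level (log2 fold change 0.00134). The 8 macrophage markers, of cells that take up red cells in the marrow, summed to 30.2 to 61.1 and 29.7 to 48.8 CPM, with 36.9 CPM in MitolΔ/Δ replicate 3. Of 7 tested, 6 had a positive log2 fold change (median over the 7, 0.73). The iron exporter gene Slc40a1 was called (0.80, edgeR adjusted p = 0.0392, and 0.0772 without replicate 3). It was called in 1 of 8 fits that left out a library. Vcam1 was at 1.60 (edgeR adjusted p = 0.0558). Megakaryocyte and platelet markers, 8 of 10 in the table, ran from 257 to 542 and from 352 to 540 CPM, highest in MitolΔ/Δ replicate 4. Of 7 tested, 2 had a positive log2 fold change (median over the 7, -0.27). Pf4 was called, lower in MitolΔ/Δ (-1.69, edgeR adjusted p = 0.0202, and 0.0593 without replicate 3). B-lineage (4 of 8 in the table), T-cell (3 of 7) and mast cell and basophil markers (1 of 8) summed to at most 22.2, 26.6 and 2.22 CPM. None of these sums peaked in MitolΔ/Δ replicate 3, although single markers such as C1qc and Elane did. The summed red cell membrane, heme and maturation lists peaked there, at 1129, 890.3 and 815 CPM. Abundant genes weigh most in such sums. Tfr2, Epb41 and Gypc, the largest of the membrane list (339.6, 267.3 and 134.3 CPM in replicate 3), were highest in other libraries. Slc25a37, the largest of the heme list, was highest in replicate 3. What these sums reflect was not tested. The membrane sum was nearly as high in replicate 4, at 1117 CPM. The summed erythroid factors and receptor were highest in control replicate 4 (3506 CPM), and at 2604 CPM in MitolΔ/Δ replicate 3 they lay below every control library (3013 to 3506 CPM). Abundant genes such as Lmo2 and Bcl11a (648.3 and 537.8 CPM in replicate 3) carry that sum. Gata1, Klf1 and Epor, at 31.0, 9.67 and 17.1 CPM in replicate 3, were each above every control library. Gfi1b, Sox6, Nfe2, Lmo2, Ldb1 and Gata2 were each below every control library there. The 10 proliferation genes summed to 871 to 1912 CPM in MitolΔ/Δ and 629 to 879 CPM in control libraries, and 9 of them rose. Their sum was highest in MitolΔ/Δ replicate 1 and lowest of the group in replicate 4, and their part in the red cell results was not tested.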

How the data were processed

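RNA-seq was performed on 100 sorted HSCs per library, 4 MitolΔ/Δ and 4 control. The authors sequenced 75 bp single-end reads, used STAR against mm39 (GRCm39), samtools for merging and subread for counting, and deposited raw counts per gene. The annotation, the strand setting and the treatment of multiply mapped reads are not given in the sources used here. Of 23094 rows, 1029 without a symbol (0.335% to 0.467% of a library's counts) were left out.

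CPM were computed on named genes (7214935 to 12398138 counts per library), with exact Poisson intervals at 95%. Ratios between libraries have exact counting intervals. Differential expression was tested in edgeR (version 4.0.16) by quasi-likelihood with TMM factors, the default filter, condition as sole term and Benjamini-Hochberg adjustment at 0.05 over 16444 genes. DESeq2 (version 1.42.0) gave size factors and an alternative fit. Both were tested on simulated counts. Positions and windows came from GENCODE vM39. Genes to name were the 9 members, list genes past the threshold (up to 6 per list by adjusted p), Gata1, Klf1, Epor, Ahsp, Tfrc and Hemgn, and the genes closest in pattern (5 for the globin sum, 2 per other member). Genes highest in 1 library by 2 times, the markers summed and a few others were named after their values were seen. A few genes of these lists are not reported here. The members and all lists were chosen with earlier results of these data known. Alternatives covered normalization, filter, tool, the replicate number as a block, denominators and each library left out.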

Additional observations from a re-analysis of the deposited data

Results flagged for a closer look

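Dixon's ratio, the gap of the extreme library to its neighbour over the range of its group, was computed on normalized counts for the 18 other named genes, in both groups of 4, and 3 of 36 groups exceeded Dixon's 95% critical value for 4 samples. Chance alone flags about 1 in 20 groups. The extreme library was MitolΔ/Δ replicate 3 for Hemgn (0.893) and Cpox (0.860), at normalized counts of 433.9 and 463.2, and MitolΔ/Δ replicate 4 for Gata2 (0.864). The 9 members were chosen with these values known and were left out.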

How the results depend on the processing

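The sum of the 4 globins in MitolΔ/Δ replicate 3 was 2.11 to 2.16 times that of the next library under 4 other denominators, and 316 of 320 levels of a member or of that sum in a library stayed within their 95% counting interval. With all libraries, 1386 genes were called by edgeR, 1406 with DESeq2 size factors, 1257 without the filter and 2315 by DESeq2. Leaving out each library in turn gave 359 to 2501 calls, and leaving out MitolΔ/Δ replicates 3 and 4 together, chosen after the data were seen, gave 2422. Of red cell genes outside the members, 15 were called, 14 to 18 under other normalizations, filters or tools, and 3 to 15 with a library left out. The lowest count, 3, came without control replicate 2. By library left out, MitolΔ/Δ replicates 1, 2, 3 and 4 gave 8, 6, 5 and 15, and control replicates 1, 2, 3 and 4 gave 7, 3, 6 and 4. For all genes the same order gave 565, 492, 520 and 2501, and 1319, 359, 811 and 510. The cause of these shifts was not tested. Whether the replicate numbers pair the libraries could not be decided. Deviations of same-numbered libraries correlated at 0.08, -0.07, 0.05 and 0.06, and those of differently numbered libraries at -0.124 to 0.0911. These small values overlap, so they do not settle it. With the replicate block, 1652 genes and 16 red cell genes were called, Klf1 among them (adjusted p = 0.00635), while Ldb1 and Nfe2 were not. The 5 members below the filter got no edgeR value, and at 100 cells per library counts near 0 cannot show absence.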
